A study of Mus musculus with 6 samples.

Results

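The cluster n15-M/TC-1, called n15 here, is the smallest of the 3 clusters that the study's annotation of olfactory bulb neurons names as mitral and tufted cells. Its members were the 90 cells that carry this name in the deposited annotation, out of 21746 annotated neurons and 51426 annotated cells of the mouse olfactory bulb. The other mitral and tufted clusters are n16-M/TC-2 with 116 cells and n17-M/TC-3 with 927 cells. Single cells were measured in 6 libraries, with 2 libraries in each of the control, naris occluded and olfactory trained groups. All groups were C57BL/6NJ mice, 14 weeks old when the bulbs were collected, and each library held the bulbs of 3 pooled mice, males in the libraries numbered 1 and females in those numbered 2. Naris occluded mice had a single nostril closed for 6 weeks. Trained mice were deprived of water and spent the same time learning to discriminate odors for a water reward. The study's text does not state water deprivation for the other mice, so its part cannot be told apart from that of training. The sample labels give the control mice no manipulation and the study's text calls them naive, but another sentence of it takes the open side of occluded mice as the control, and these accounts cannot be told apart from the data used here. The mice were wild-type, and the members of the cluster were defined by their RNA alone.

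Mitral and tufted cells are the glutamatergic projection neurons of the olfactory bulb. They receive the axons of olfactory sensory neurons in glomeruli, form reciprocal dendrodendritic synapses with GABAergic granule and periglomerular cells, and send their axons to the olfactory cortex. They load glutamate into vesicles with the transporters Slc17a7 and Slc17a6, and their development depends on T-box transcription factors such as Eomes, Tbr1 and Tbx21.

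The 90 cells came from every library: 8 and 16 from control, 17 and 6 from naris occluded, and 23 and 20 from trained libraries 1 and 2. Summed over its cells, n15 held between 8841 transcript molecules (UMIs) in naris occluded 2 and 35997 in trained 1, out of 11841160 to 17065083 UMIs in the annotated cells of a library. Levels are given as CPM, the UMIs of a gene scaled to the same total in the summed n15 cells of a library, with the SD over the 6 libraries, and a single UMI in n15 was worth between 27.8 and 113 CPM. For both trained libraries the prefix of a cell's name points to the opposite library from the annotation's library field, and that field was used. Of the 90 cells, 9 had a barcode that also occurs in another library, and 0 barcodes were shared between n15 cells of different libraries. A comparison of n15 with other clusters repeats what defined the clusters, so levels between clusters are a description without a test.

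The name of the cluster was checked against listed mitral and tufted cell markers, and most of them stood above their levels in neurons of other kinds, although often below their levels in n17. Cdhr1, a cadherin-related protein known as a marker of mitral and tufted cells, was at 901 and 567 CPM in the control, 321 and 452 CPM in the naris occluded, and 556 and 323 CPM in the trained libraries. Its mean was 520 ± 215 CPM (SD, n = 6 libraries) in n15, 754 ± 449 CPM in n16 and 2115 ± 267 CPM in n17. All 6 n15 values lay above every cluster outside the mitral and tufted cells, of which n18-EPL-IN was the highest with a mean of 66.4 CPM, and all 6 lay below n17. Slc17a7, the vesicular glutamate transporter of many projection neurons, was at 901 and 717 CPM in the control, 578 and 566 CPM in the naris occluded, and 917 and 791 CPM in the trained libraries. Its mean of 745 ± 153 CPM lay between those of n16 (283 ± 219 CPM) and n17 (2038 ± 287 CPM).

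The markers did not all put n15 in the same place among the mitral and tufted clusters. Ntng1, which encodes the membrane-anchored netrin G1 of glutamatergic axons, was at 2217 and 1553 CPM in the control, 1637 and 1470 CPM in the naris occluded, and 1806 and 1581 CPM in the trained libraries. It was higher in n15 than in all other neuronal clusters in each of the 6 libraries, with means of 1711 ± 272 CPM in n15, 885 ± 145 CPM in n17 and 33.4 ± 29.9 CPM in n16. Reln, the extracellular glycoprotein reelin, averaged 708 ± 156 CPM in n15 and 1436 ± 138 CPM in n17, and it was low in n16 at 27.9 ± 19.1 CPM. Eomes, a T-box factor that marks tufted and mitral cells, had means of 139 ± 85.1 CPM in n15, 739 ± 278 CPM in n16 and 175 ± 72.5 CPM in n17. Slc17a6, the other glutamate transporter of these cells, reached only 34.2 ± 46.2 CPM in n15, from 4 UMIs in all, against 369 ± 211 CPM in n16. The defining factor Tbx21 rested on 6 UMIs in n15, too few to place the cluster by it, and Tbr1 had only 1 UMI in n15. Of the 12 listed markers, 9 had a mean of at least 50 CPM over the 3 clusters, and of these 8 had a mean in n15 above that of every cluster outside the mitral and tufted cells, and 3 did so in each of the 6 libraries. The share of all genes was not determined for these 2 counts. Between n15 and n17, 1 of the 9 was higher and 6 were lower in n15 in every library, where 12% and 16.9% of the 3906 genes at or above 50 CPM were.

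**Figure D1:**
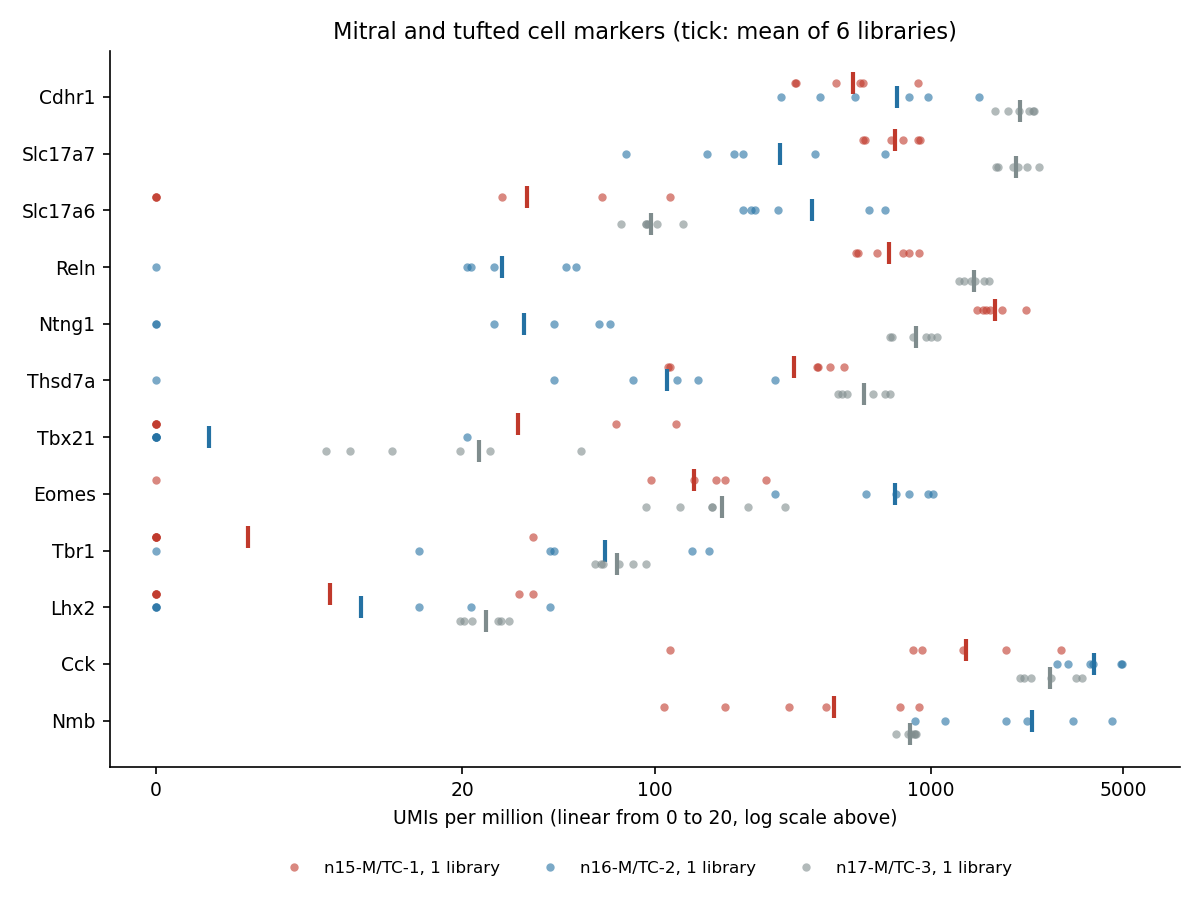
Levels of the 12 listed mitral and tufted cell markers in n15, n16 and n17, with CPM of the summed cells of a library on the horizontal axis (linear near 0 and logarithmic above), a point for each of the 6 libraries and a tick at the mean. Ntng1 is highest in n15, whereas Cdhr1, Slc17a7 and Reln are highest in n17 and Eomes is highest in n16.

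Among single cells, Cdhr1 was detected in 41 of the 90 cells (45.6%), Slc17a7 in 55 (61.1%), and at least 1 of Cdhr1, Slc17a7 and Slc17a6 in 70 (77.8%). Olfactory sensory neurons, which should not hold Cdhr1 or Ntng1 from their own transcription, gave the background of free RNA. Cdhr1 had a UMI in 2.58% of the n01-OSNs cells, and after thinning every cell to 500 UMIs it was in 17.8% of n15, 57.9% of n17 and 0.833% of n01 cells. The median depth before thinning was 1507 UMIs in n15, 865 in n17 and 808.5 in n01. At least 1 of the GABAergic genes Gad1, Gad2 and Slc32a1 had a UMI in 42 n15 cells (46.7%), against 47.4% of n16 and 34.2% of n17 cells. After thinning, Gad1, which makes GABA from glutamate, was in 16.7% of n15 and 14.8% of n01 cells. The part of free RNA in these shares was not tested. The level of Gad1 was 313 ± 196 CPM in n15 and 2344 CPM in n12-GC-6, the cluster where it was highest.

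The genes that led n15 over all 17 other neuronal clusters included Coro6, Rreb1, Pcdh15 and Rapgef3, and none of the 12 listed markers (0) was among the first 15. By a rule of size, these were the 15 genes with the largest ratio of n15 to the highest other cluster, and the values that chose them are given without a test. Coro6, which encodes a coronin that binds actin, was at 208 and 448 CPM in the control, 706 and 679 CPM in the naris occluded, and 639 and 683 CPM in the trained libraries. Its mean was 560 ± 197 CPM, against 124 CPM in n16 and 88.8 CPM in n17, a log2 ratio of 2.01 over the highest other cluster. Both control libraries were lower than the others for Coro6, and its mean over the control libraries alone was 328 CPM. The value of control 1 rested on 3 UMIs. For naris occluded against control the log2 difference of Coro6 was 0.84 ± 0.44 (SE, edgeR adjusted p = 0.798), which did not pass the test. Rreb1, a zinc finger transcription factor acting downstream of Ras, had the highest ratio with a log2 value of 2.63, at 277, 209, 289, 113, 333 and 252 CPM in control, naris occluded and trained libraries in that order. Pcdh15, a protocadherin best known from the tip links of hair cells, had the smallest SD of the 15 relative to its mean, at 485, 478, 449, 566, 417 and 539 CPM in the same order.

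Rapgef3, an exchange factor for Rap that cAMP activates, averaged 354 ± 146 CPM with a log2 ratio of 2.11, and Rgs11, a regulator of G protein signaling, averaged 232 ± 111 CPM with a log2 ratio of 2.22. Ryr1, the ryanodine receptor that releases calcium from internal stores, had the largest SD relative to its mean. It was at 139 and 537 CPM in the control, 64.2 and 0 CPM in the naris occluded, and 556 and 359 CPM in the trained libraries. Vegfa, an angiogenic growth factor, averaged 251 ± 121 CPM against 63.8 CPM in n17, the next highest cluster. Cpeb1, which binds the polyadenylation element of dormant mRNAs, averaged 268 ± 56.0 CPM with a log2 ratio of 1.83. The others were 4930447C04Rik, Nradd, Miat, Nek1, Tbkbp1, Nbeal2 and Sgcz. The last gene inside the rule was Pcdh15 with a log2 ratio of 1.69 and the first outside was Epb41 with 1.68. Counting libraries in which n15 exceeded all 17 others, 7 of the 15 genes did so in 6, another 7 in 5, and Ryr1 in 4. These counts repeat the values that chose the genes, and the share of all genes was not determined for them.

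**Figure D2:**
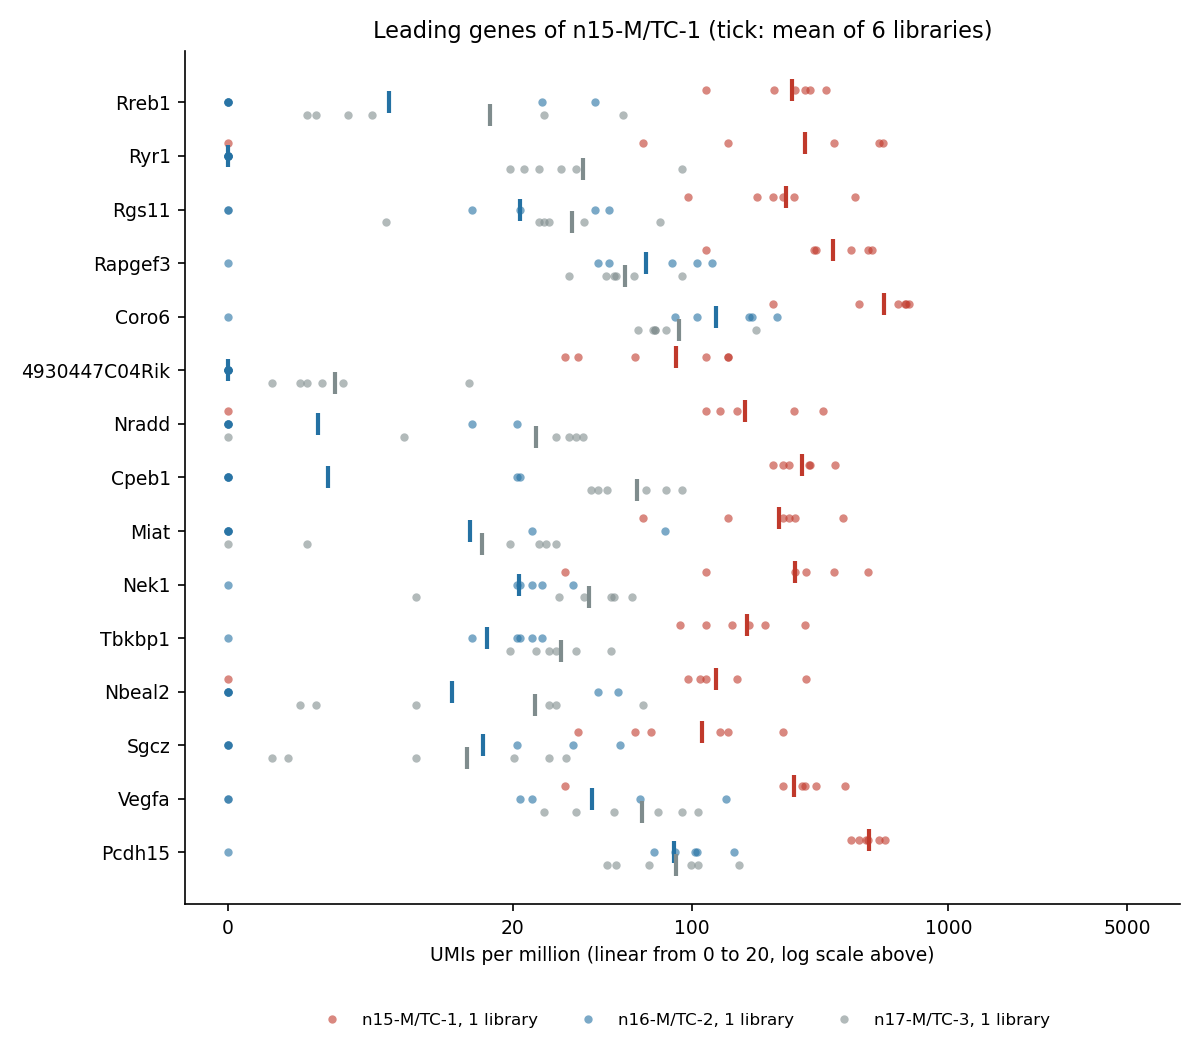
Levels of the 15 leading genes in n15, n16 and n17, with CPM of the summed cells of a library on the horizontal axis (linear near 0 and logarithmic above), a point for each of the 6 libraries and a tick at the mean. The n15 means lie above those of n16 and n17 for all 15 genes, while single n15 points of Ryr1, Nradd and Nbeal2 are at 0.

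Coro6 was found in cells with and without a UMI of Cdhr1. It had a UMI in 22 of the 41 cells with Cdhr1 and in 26 of the 49 cells without it. After thinning, Coro6 was in 25.6% of n15, 2.37% of n17 and 0.167% of n01 cells, and Ntng1 in 53.3%, 29.0% and 1.08%. Of the 15 leading genes, 3 were also among the 10 with the largest ratio over both n16 and n17.

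Long noncoding RNAs that stay in the nucleus took a larger share of the UMIs of n15 than of n16 and n17, at a level shared with granule and periglomerular clusters. The 9 measured RNAs of this list made up 8.26 ± 0.767% of n15 UMIs, 4.22 ± 1.32% of n16 and 2.54 ± 0.406% of n17 UMIs, while n03-GC-1, a granule cell cluster, had 8.14 ± 0.740% and the periglomerular clusters n05-PGC-2 and n02-PGC-1 had 7.97% and 7.96%. The n15 and n03 values overlapped, with highest libraries of 8.98% and 9.13%. Meg3, an imprinted noncoding RNA, was at 14689 and 15736 CPM in the control, 15371 and 15270 CPM in the naris occluded, and 19363 and 23105 CPM in the trained libraries, and no library of n16 or n17 reached the lowest of these. Its means were 17256 ± 3318 CPM in n15, 4466 CPM in n16 and 3908 CPM in n17. Snhg11, the host transcript of small nucleolar RNAs, averaged 10929 ± 1978 CPM in n15, 2718 CPM in n16 and 1868 CPM in n17. Malat1, an abundant RNA of nuclear speckles, averaged 52883 CPM in n15 and 19377 CPM in n17, and n15 was only number 11 of the 18 clusters for it. Kcnq1ot1, an imprinted antisense transcript, averaged 946 ± 168 CPM against 630 CPM in n06-Transition, the next cluster. Pantr1 went the other way, with 28.0 CPM in n15 and 434 CPM in n16. Of the 7 listed RNAs at or above 50 CPM, 6 were higher in n15 than in n17 in each of the 6 libraries, where 12% of all genes at this level were.

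No n15 cell had as little of these RNAs as most n17 cells. Nuclear long noncoding RNAs made up between 1.90% and 17.9% of the UMIs of an n15 cell, with a median of 7.88% and quartiles of 6.14% and 9.95%. None of the 90 cells (0) lay under 1%, while 43 of the 116 n16 and 725 of the 927 n17 cells did. Median shares were 3.94% in n16 and 0.260% in n17, although n17 reached from 0 to 21.0%. The cells of n15 also had more UMIs and genes, with median values of 1507 UMIs and 990 genes per cell, while n17 cells had 865 UMIs and 544 genes. At 500 UMIs per cell the median number of genes was 388 in n15, 355 in n16 and 353 in n17. Mitochondrially encoded genes had median shares of 9.21% in n15, 15.1% in n16 and 16.4% in n17 cells.

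**Figure D3:**
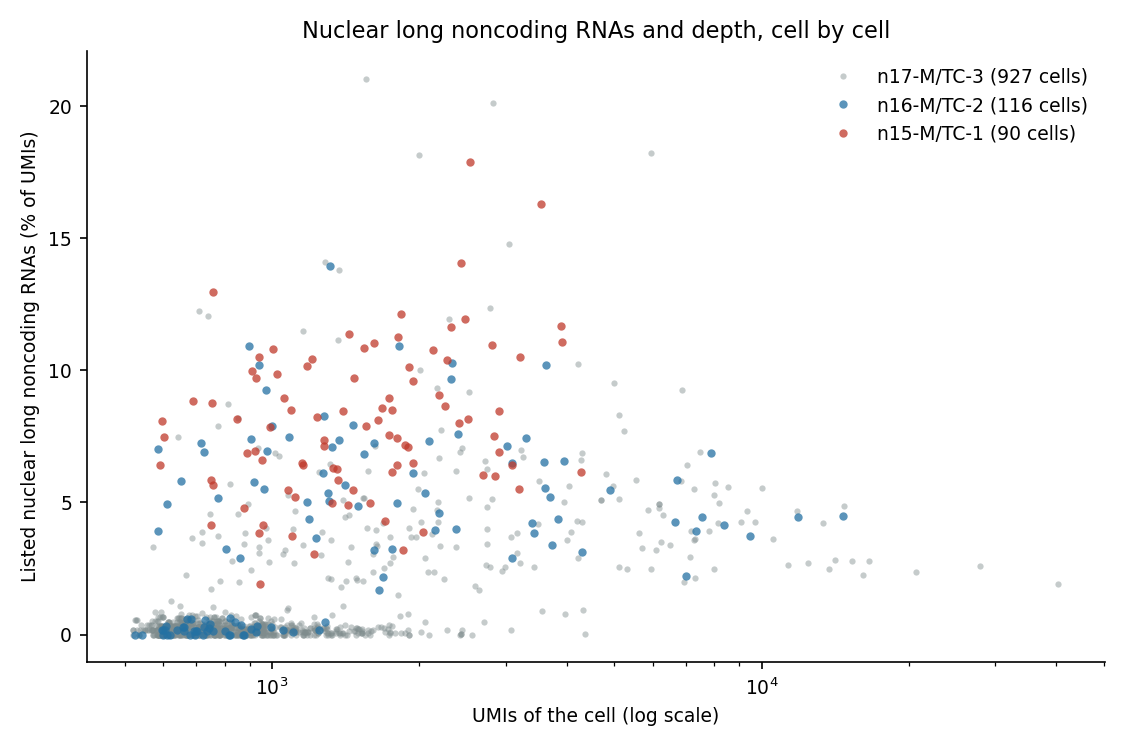
Share of the UMIs of each cell in nuclear long noncoding RNAs against its number of UMIs, on a log axis, with a point for each cell of n15, n16 and n17. All 90 n15 cells lie above 1%, and most n17 cells lie below it.

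The annotation of the whole bulb, made by the study on neurons and other cells together, placed 88 of the 90 n15 cells in the cluster N14 and 2 in N11. N14 held 244 cells in all, of which 100 were n17 cells (41.0%) and 42 were n16 cells (17.2%), while 776 n17 cells were in N15. This gave a comparison of n15 with the n17 cells that it was grouped with. Trained 2 had 0 n16 cells in N14, and all counts of libraries against n16 are over all n16 cells. Cdhr1 averaged 476 ± 280 CPM in the n16 and 527 ± 213 CPM in the n15 cells of N14, the reverse of their order over all cells. The n17 cells of N14 had a median of 5174.5 UMIs, more than the 1507 UMIs of the n15 cells there, and 0 of the n15, n16 and n17 cells in N14 lay under 1% of nuclear long noncoding RNAs. Within N14 the nuclear RNAs still made up 8.28% of n15 and 4.39% of n17 UMIs. Coro6 averaged 571 CPM in n15 and 169 CPM in n17 there, higher in n15 in 6 of 6 libraries, and Cdhr1 averaged 527 and 1473 CPM, lower in n15 in 6 of 6. Of the 15 leading genes, 9 were higher in n15 than in n17 in every library within N14, where 9.17% of all genes were, and since they had been chosen with the levels of these n15 cells this count is a description. Of the 9 markers, 1 was higher and 2 were lower in every library within N14, in place of 6 lower among all cells, where 16.8% of all genes were lower. Reln averaged 712 CPM in n15 and 797 CPM in n17 there, higher in n15 in 4 of 6 libraries. Tbr1 averaged 5.99 CPM in n15, from 1 UMI, and 160 CPM in n17 there, lower in n15 in 6 of 6 libraries. The median log2 ratio of n15 over n17 within N14 was 1.82 for 2 olfactory sensory neuron, 1.77 for 6 ensheathing cell, 1.58 for 2 oligodendrocyte lineage, 1.49 for 5 vascular, 1.44 for 6 astrocyte, 0.96 for 4 microglia and macrophage and 0.62 for 7 GABAergic interneuron markers. It was 0.69 for 2 hemoglobin genes, −0.26 for 8 immature neuron and −0.66 for 2 granule and periglomerular markers. Higher in n15 in every library were 2 of the 2 sensory neuron, 3 of the 6 astrocyte and 1 of the 2 oligodendrocyte lineage markers. The same held for 1 of the 7 GABAergic interneuron markers, 1 of the 8 immature neuron markers and 1 of the 2 hemoglobin genes. It held for 0 of the ensheathing cell, vascular, microglia and macrophage, and granule and periglomerular markers. The part of all these in the ratios within N14 was not tested.

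Genes of splicing and RNA processing were mostly higher in n15 than in n17. Of the 25 listed genes at or above 50 CPM, 20 were higher in n15 than in n17 in each of the 6 libraries and 0 were lower in each, against 12% and 16.9% of all genes at this level. Their median log2 ratio over n17 was 1.99, against −0.05 for all genes, and together they made up 1.80 ± 0.186% of n15, 0.709% of n16 and 0.481% of n17 UMIs. Over n16, 17 of the 25 were higher in every library, where 9.42% of all genes were, and 0 were lower in every library, where 10.1% were. Srrm2, a scaffold of nuclear speckles, was at 1801 and 3106 CPM in the control, 2664 and 1470 CPM in the naris occluded, and 2445 and 3306 CPM in the trained libraries. The highest n17 value of Srrm2 was 516 CPM, below all of these. Clk4, a kinase of splicing factors, averaged 319 ± 76.9 CPM in n15 and 38.8 CPM in n17 and was above every other neuronal cluster in each of the 6 libraries. Celf4 did not separate the clusters, with means of 563, 471 and 503 CPM in n15, n16 and n17.

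The cluster nearest to n15 in these genes was n06-Transition, named by the study as neurons in transition and not as mitral or tufted cells. It was second among the 18 clusters in the summed list, at 1.57% of UMIs against 1.80% in n15, and it was the highest other cluster for 21 of the 25 genes. In 14 of the 25 genes the highest mean of all 18 clusters was that of n15. The share of all genes was not determined for these counts. Son, another speckle protein, had equal means of 1665 CPM in n15 and 1667 CPM in n06. Within N14 the count of splicing genes above n17 in every library was again 20, with 2 below, where 9.17% and 16.8% of all genes were.

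Among the 10 genes that stood highest over both n16 and n17, n06-Transition was likewise the highest other cluster for 8, and the share of all genes was again not determined. Srrm4, which promotes the inclusion of neuronal microexons, had the largest log2 ratio (2.85), with 444 ± 113 CPM in n15 and from 289 CPM in naris occluded 1 to 575 CPM in trained 2. Zcchc7, part of a nuclear RNA surveillance complex, was at 901, 627, 610, 679, 917 and 1222 CPM in the control, naris occluded and trained libraries in that order, and it exceeded every other neuronal cluster in all 6. The rule also took Rreb1, Miat, Lrrc45, Ubn2, Ryr1, Gm15594 and Otud4. Otud4 had a log2 ratio of 2.32, and the first gene outside was Gm15856 with 2.29.

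The genes furthest below both n16 and n17 included Gapdh, Atp6v1a and Eif3j1. Gapdh, a glycolytic enzyme, was at 69.3 and 149 CPM in the control, 193 and 113 CPM in the naris occluded, and 139 and 252 CPM in the trained libraries, and it averaged 152 ± 63.4 CPM in n15, 793 CPM in n16 and 708 CPM in n17. Every n15 value of Gapdh lay below the lowest n17 value, 655 CPM. Atp6v1a, a subunit of the vacuolar proton pump that acidifies vesicles, had 5 UMIs in n15, or 28.3 ± 41.8 CPM, against 408 ± 83.0 CPM in n17. Eif3j1, a subunit of a translation initiation factor, had 0 UMIs in n15 and averaged 91.5 CPM in n17. The others were Clip3, Acot7, Tmem160, Rcan2, Coa3, Rit2 and Edf1, and Pitpna was the first outside with a log2 ratio of −2.02 next to Gapdh with −2.08. Of the 10 genes, 9 had their lowest mean of all 18 clusters in n15, and 4 were below both other clusters in each of the 6 libraries. The rule that chose them favors a low mean, so these 2 counts repeat the values that chose the genes. The share of all genes was not determined for them, and most of the genes rested on few UMIs. In the n15 cells of N14 there was 1 UMI of Clip3, 2 of Rit2, 3 each of Acot7 and Rcan2, 4 of Tmem160 and 6 of Coa3. Edf1 had 11 and Gapdh 25 there.

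Cytosolic ribosomal protein genes made up 4.55 ± 0.672% of n15 UMIs, the lowest share of the 18 neuronal clusters, against 6.30% in n16 and 6.60% in n17. Of the 92 at or above 50 CPM, 37 were below n17 in each of the 6 libraries and 1 was above, against 16.9% and 12% of all genes. Within N14 38 were below, where 16.8% of all genes were. Mitochondrially encoded genes made up 9.57 ± 1.07% of n15, 13.0% of n16 and 13.7% of n17 UMIs. This order turned within N14, where they took 9.61% of n15 and 7.36% of n17 UMIs, higher in n15 in 6 of 6 libraries.

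At the synapse, n15 had more RNA of the scaffolds that organize release sites and less of the vesicles than n17. Here and in the lists that follow, the counts are over the listed genes at or above 50 CPM. Of 10 active zone genes at or above 50 CPM, 5 were higher in n15 than in n17 in every library and 0 lower, against 12% and 16.9% of all genes, with a median log2 ratio of 1.09 over n17 and 1.76 over n16. Within N14, 2 of the 10 were higher in every library, against 9.17% of all genes. Pclo, the large active zone scaffold piccolo, was at 554, 388, 385, 452, 639 and 647 CPM in the control, naris occluded and trained libraries in that order, above every other neuronal cluster in all 6. Erc2, another active zone scaffold, averaged 281 ± 159 CPM against 121 ± 40.4 CPM in n17, whereas Bsn, the relative of Pclo, averaged 76.9 ± 53.6 CPM in n15 and 127 ± 56.2 CPM in n17.

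Of 22 synaptic vesicle genes, 0 were higher than in n17 in every library and 15 were lower, against 12% and 16.9% of all genes, with a median log2 ratio of −1.14. Syp, the vesicle membrane protein synaptophysin, averaged 401 ± 181 CPM in n15, 648 ± 225 CPM in n16 and 1287 ± 187 CPM in n17, and the highest n15 value of 679 CPM was below the lowest n17 value of 1075 CPM. Rab3a, a GTPase of vesicle release, averaged 142 ± 134 CPM in n15 and 462 ± 60.3 CPM in n17. Within N14 the count of vesicle genes below n17 in every library was 7 of the 22. Against n16, 2 genes were higher and 2 lower in every library, about the 9.42% and 10.1% of all genes.

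Genes of dense core vesicles and neuropeptides were lower in n15 than in n17 in every library for 8 of 15 and higher for 0, against 16.9% and 12% of all genes. Within N14 this was 2 of 15 lower, under the 16.8% of all genes, and the median log2 ratio was −0.50, nearer to 0 than over all n17 cells. Chgb, a granin of dense core vesicles, was at 485, 537, 321, 339, 361 and 467 CPM in the control, naris occluded and trained libraries in that order, and averaged 418 ± 89.5 CPM against 1960 ± 385 CPM in n17. Cck, the neuropeptide cholecystokinin of tufted cells, averaged 1345 ± 988 CPM in n15, 3923 CPM in n16 and 2706 CPM in n17, with a wide spread between libraries. Nmb, which encodes neuromedin B, averaged 447 ± 323 CPM in n15 and 2321 ± 1384 CPM in n16. Glutamate supply genes were lower than in n17 in every library for 4 of 11 and higher for 1, against 16.9% and 12% of all genes. The counts were the same within N14. Slc38a1, a transporter that takes up glutamine, averaged 225 ± 150 CPM in n15 and 688 ± 189 CPM in n17, lower in n15 in 6 of 6 libraries.

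Of 10 glutamate receptor genes, 3 were higher in n15 than in n17 in every library and 1 lower, against 12% and 16.9% of all genes, while against n16 0 were higher and 3 lower, against 9.42% and 10.1%. Gria2, the AMPA receptor subunit that limits calcium entry, was at 1940, 2449, 1990, 2375, 2195 and 2048 CPM in the control, naris occluded and trained libraries in that order and averaged 2166 ± 210 CPM, against 648 ± 91.8 CPM in n17. Gria4, another AMPA receptor subunit, averaged 298 ± 73.6 CPM in n15, 744 ± 242 CPM in n16 and 129 ± 40.7 CPM in n17, higher than n17 and lower than n16 in each library. Of 10 GABA and glycine receptor genes, 4 were lower than in n17 in every library and 0 higher, against 16.9% and 12% of all genes. Within N14, 2 of these 10 were lower, close to the 16.8% of all genes, with a median log2 ratio of −0.10 in place of −0.66.

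Ion channel genes were mixed, with counts near the 12% of all genes above and 16.9% below n17. Of 22 sodium and calcium channel genes, 4 were higher than in n17 in every library and 2 lower, and of 15 potassium channel genes 1 was higher and 2 lower. Cacnb4, a cytoplasmic subunit of calcium channels, averaged 669 ± 148 CPM in n15, 139 CPM in n16 and 456 ± 123 CPM in n17 and was above every other neuronal cluster in 6 of 6 libraries. Cacna1i, a low-voltage calcium channel, belonged to n16, at 361 ± 169 CPM against 14.6 ± 23.8 CPM in n15, from 3 UMIs, and 19.4 CPM in n17. Kcna2, a delayed rectifier potassium channel, averaged 236 ± 134 CPM in n15 and 556 ± 67.0 CPM in n17, lower in n15 in 6 of 6 libraries.

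Genes of large proteins that link cytoskeletal filaments were higher in n15 than in n17 in every library for 11 of 24 and lower for 0, against 12% and 16.9% of all genes. The highest mean of all neuronal clusters was that of n15 for 13 of the 24, and the share of all genes was not determined for this count. Nav1, which binds microtubules in growing neurites, averaged 616 ± 248 CPM in n15, 202 ± 71.0 CPM in n16 and 204 ± 79.4 CPM in n17. Macf1, a linker of microtubules and actin, averaged 710 ± 256 CPM in n15 and 180 ± 61.8 CPM in n17. Within N14 the count above n17 in every library was 4 of the 24, against 9.17% of all genes.

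Of 28 adhesion and axon guidance genes, 7 were above and 4 below n17 in every library, and 11 were above and 3 below n16. Of all genes, 12% were above and 16.9% below n17, and 9.42% above and 10.1% below n16, so the 4 below n17 were not more than the share of all genes. Kirrel3, an adhesion protein that sorts olfactory axons, averaged 261 ± 47.6 CPM in n15, 28.8 ± 28.2 CPM in n16 and 197 ± 52.5 CPM in n17. Cdh4, a cadherin, averaged 49.4 ± 37.7 CPM in n15, 536 ± 126 CPM in n16 and 50.4 ± 16.8 CPM in n17, so n15 and n17 differed by less than their spread.

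Of the 41 listed transcription factors, 16 reached 50 CPM, and of these 5 were above n17 in every library and 0 below, against 12% and 16.9% of all genes, while 2 were above and 4 below n16. The 2 above n16 are near the 9.42% of all genes. Within N14, 3 of the 16 were above n17 in every library and 0 below, against 9.17% and 16.8% of all genes. The median log2 ratio over n17 was 0.49 there, in place of 0.79 over all cells. Cux2, a homeobox factor of upper cortical layers, averaged 322 ± 162 CPM in n15, 74.3 ± 128 CPM in n16 and 120 ± 55.1 CPM in n17. Neurod1, a helix-loop-helix factor of differentiating neurons, averaged 38.6 ± 56.3 CPM in n15 and 29.7 ± 14.8 CPM in n17, against 523 ± 472 CPM in n16. Zbtb20, a zinc finger factor, averaged 589 ± 146 CPM in n15, 1609 ± 330 CPM in n16 and 238 ± 68.8 CPM in n17, higher than n17 and lower than n16 in every library. Activity-induced genes were scarce, with Fos, an early transcription factor, at 1 UMI in the 90 cells. Of the 4 at or above 50 CPM, 3 were lower than in n17 in every library, where 16.9% of all genes were. Within N14 this was 1 of 4, where 16.8% of all genes were.

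**Figure D4:**
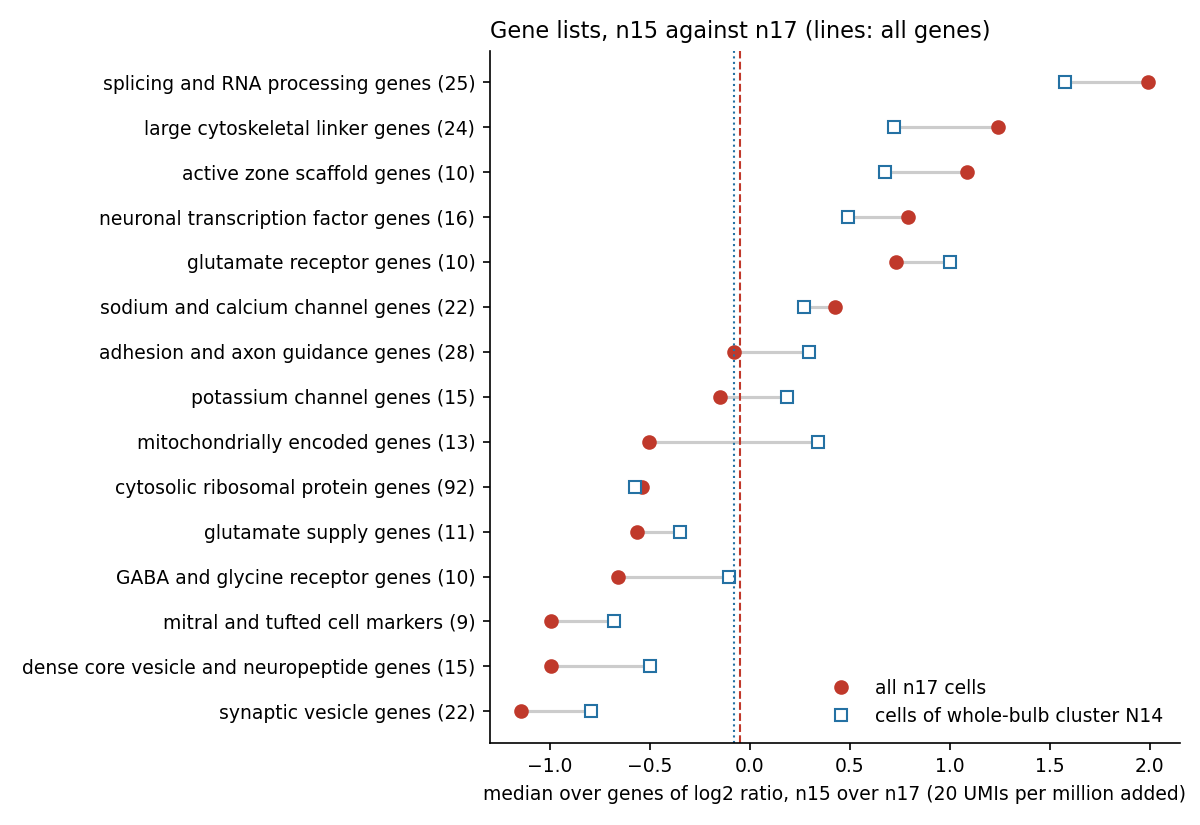
Median log2 ratio of n15 over n17 (horizontal axis, with 20 CPM added to both) for the lists with at least 9 genes at or above 50 CPM, a row for each list. Filled points are all cells, open squares the cells of N14, and vertical lines the medians of all genes (−0.05 and −0.08). Splicing genes have the highest median over all n17 cells (1.99) and synaptic vesicle genes the lowest (−1.14).

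The ratio of n15 to the other clusters went with the genomic span of the gene. Spans, from the start to the end of the RefSeq gene on GRCm38.p6, were found for 3780 of 3800 genes that are neither mitochondrial nor ribosomal (99.5%). The genes were divided by span into 5 bins of 756 genes each. From the shortest to the longest bin, with median spans of 4.15, 11.7, 25.6, 57.3 and 162 kb, the median log2 ratio of n15 over n17 was −0.50, −0.26, −0.01, 0.30 and 0.53. Over n16 it was −0.50, −0.26, −0.01, 0.37 and 0.53, and over the n17 cells of N14 −0.56, −0.26, −0.05, 0.18 and 0.34. In the longest bin 19.6% of genes were above n17 in every library and 8.47% below, and in the shortest bin 5.03% and 27.1%. The counts of the lists stand beside the shares of all genes, whatever their span. Across genes, which share libraries and cells, Spearman's rho of the span and the ratio was 0.305 for n17 and 0.328 for n16. The leading genes had a median span of 29.4 kb, near the 25.6 kb of all these genes. The genes furthest above both n16 and n17 had a median of 78.8 kb, for the 9 of 10 with a span, and those furthest below had 20.9 kb. The part of gene span and of nuclear RNA in the differences between clusters was not tested.

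Markers of other cells differed between the libraries of n15. Listed markers of olfactory ensheathing cells, of which 6 of 10 reached 50 CPM, made up 0.229% and 1.03% of n15 UMIs in the control, 0.196% and 2.10% in the naris occluded, and 0.256% and 0.345% in the trained libraries. The highest values were in control 2 and naris occluded 2, both female pools. The range was 0.183% to 0.529% in n16 and 0.345% to 0.768% in n17. Vascular markers ranged from 0.0389% to 0.233% of n15 UMIs, microglia and macrophage markers from 0.00833% to 0.192%, and astrocyte markers from 0.0770% to 0.226%. Over all 6 libraries, 0 of the 6 ensheathing cell, 1 of 5 vascular, 0 of 4 microglia and macrophage, 1 of 6 astrocyte, 0 of 2 oligodendrocyte lineage, 0 of 2 olfactory sensory neuron, 0 of 2 granule and periglomerular, 1 of 8 immature neuron, 1 of 7 GABAergic interneuron and 0 of 2 hemoglobin genes at or above 50 CPM were higher in n15 than in n17 in every library, where 12% of all genes were. Lower in every library were 1 granule and periglomerular and 1 immature neuron marker and 0 of the others. The vascular gene was Cldn5, which averaged 402 ± 294 CPM in n15, and among immature neuron markers Dcx, a microtubule protein of migrating neurons, averaged 257 ± 51.5 CPM in n15 and 53.5 ± 18.1 CPM in n17. Their part in the differences between clusters and between conditions was not tested.

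The number of n15 cells was compared between conditions. They made up 0.181% (95% exact Clopper-Pearson interval 0.0780 to 0.356%) and 0.518% (0.296 to 0.839%) of neurons in the control libraries. In the naris occluded libraries the shares were 0.570% (0.332 to 0.911%) and 0.176% (0.0646 to 0.382%). In the trained libraries they were 0.455% (0.289 to 0.682%) and 0.720% (0.440 to 1.11%). The lowest shares were in control 1 and naris occluded 2, so the naris occluded values overlapped the control values, and so did the trained values. Intervals cover counting error only, and fewer cells captured cannot be told apart from fewer cells in the tissue.

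By edgeR's quasi-likelihood test on the numbers of cells of the 18 neuronal clusters, the log2 ratio of n15 was 0.14 ± 0.60 (SE) for naris occluded against control (adjusted p = 0.867) and 0.78 ± 0.55 for trained against control (adjusted p = 0.506). The ratio for naris occlusion turned to −0.50 without control 1 and to −0.90 without naris occluded 1, and it was 1.00 without control 2 and 0.78 without naris occluded 2. The ratio for training was 0.14 without control 1, 1.64 without control 2 and 0.46 without trained 2. Within the mitral and tufted cells, n15 made up 2.97% and 7.62% in the control, 9.09% and 4.14% in the naris occluded, and 11.6% and 16.1% in the trained libraries. Both trained values lay above both control values, a difference in means of 8.58 percentage points (exact two-sided permutation test, p = 0.333, the smallest p that 2 against 2 libraries allow). The naris occluded libraries differed from control by 1.32 points (exact two-sided permutation test, p = 0.667). The share depends on the other clusters as well: n17 had a log2 ratio of −0.76 ± 0.33 in trained against control libraries (edgeR, adjusted p = 0.506), and this too did not pass the test.

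**Figure D5:**
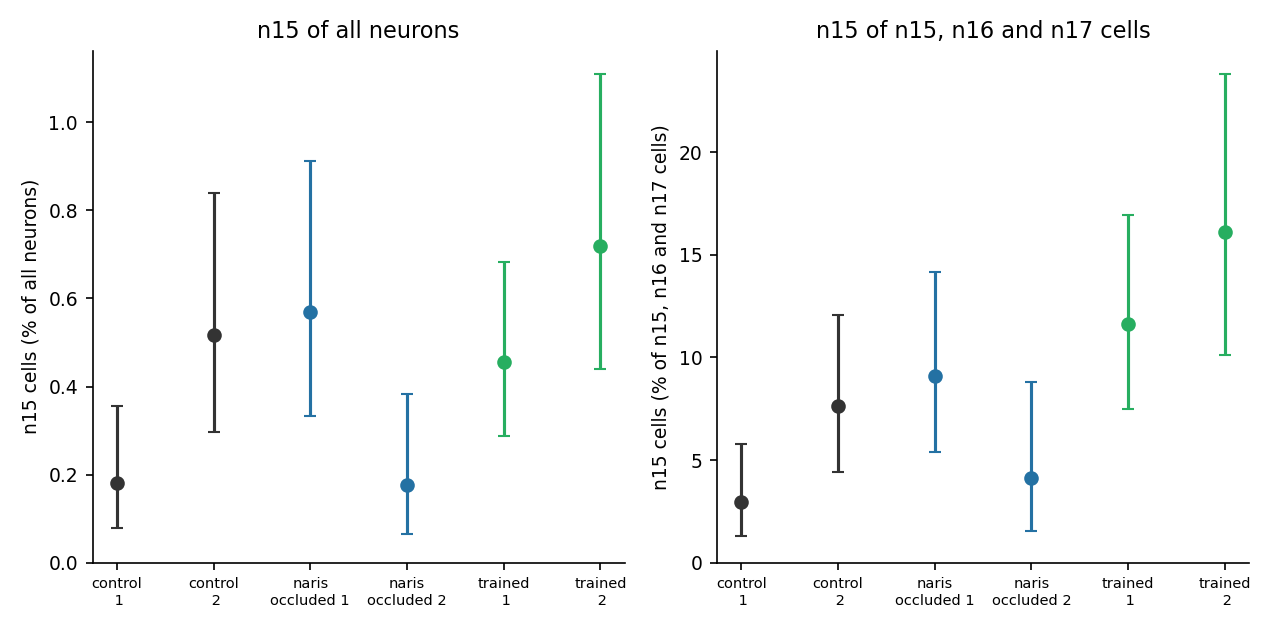
Share of n15 cells among the neurons of each library with exact 95% binomial intervals (error bars), and among the mitral and tufted cells, in percent, for control, naris occluded and trained libraries 1 and 2. The trained libraries, at 11.6% and 16.1% of mitral and tufted cells, lie above both control libraries.

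For gene expression within n15, edgeR's quasi-likelihood test on the UMIs summed per library, with the condition alone in the model, called no gene in either comparison. Of 536 genes tested, 0 (0%) passed an adjusted p of 0.05 for naris occlusion and 0 (0%) for training. At an unadjusted p under 0.05 there were 26 and 23 genes, and DESeq2 also called 0 in each, with 5 and 0 genes at an unadjusted p under 0.05. The calls depended on the model. With the replicate number, which gives the sex of the pool, added to edgeR's model, 3 genes passed for naris occlusion and 0 for training. Those for naris occlusion were Malat1, Syt7 and Cck, all lower. The p-values measure the spread between these libraries, each a pool of mice. In sums over so few n15 cells, a change in all of the cells cannot be told apart from a change in some of them.

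The smallest p for naris occlusion was that of Malat1, at 58616 and 62110 CPM in the control, 48039 and 44339 CPM in the naris occluded, and 52560 and 51637 CPM in the trained libraries. Both naris occluded values lay below both control values, with a log2 difference of −0.45 ± 0.10 (SE, edgeR adjusted p = 0.357). Syt7, a calcium sensor of slow release, was at 1316 and 1045 CPM in the control and 385 and 113 CPM in the naris occluded libraries, a log2 difference of −1.98 ± 0.48 (edgeR adjusted p = 0.357). Cck was at 2979 and 1881 CPM in the control and 931 and 113 CPM in the naris occluded libraries, a log2 difference of −1.95 ± 0.54 (edgeR adjusted p = 0.619). In naris occluded 2, both Syt7 and Cck rested on 1 UMI. Without naris occluded 1, which left the 6 cells of naris occluded 2 as the only occluded library, these 3 were among 9 genes that passed the test, with the lone library assumed to vary like the other groups. The others were Actb and Tia1, lower, and Npy, Ptn, Fabp7 and Itm2b, higher. Npy had a log2 difference of 2.09 there and of −2.14 without control 1 and naris occluded 2, and Ptn 1.42 and −2.37, so both turned with the libraries left out. Naris occluded 2 and control 2 are the libraries with the highest shares of ensheathing cell markers in n15, and the part of these in the calls was not tested.

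On the other side, Stmn4, Nmb and Snhg20 had the smallest p among genes with higher values after naris occlusion. Nmb was at 416 and 179 CPM in the control and 770 and 905 CPM in the naris occluded libraries, a log2 difference of 1.56 ± 0.54 (edgeR adjusted p = 0.641). For training the lowest p values belonged to Fam184a, Etnk1 and Gpatch8 among the higher and to Cd81, Cldn5 and Sparcl1 among the lower genes, with log2 differences of 1.58, 1.21, 1.25, −1.26, −1.81 and −1.17 and adjusted p of at least 0.936. Cldn5, a tight junction protein of blood vessels and one of the vascular markers, was at 208 and 747 CPM in the control, 353 and 792 CPM in the naris occluded, and 167 and 144 CPM in the trained libraries. Of the 113 genes of the lists that could be tested, 11 had an unadjusted p under 0.05 for naris occlusion and 8 for training, beside 26 and 23 of all 536 genes, and 0 passed the adjustment. Without control 1 and naris occluded 2, the libraries with the fewest cells, 7 genes passed in each comparison. That leaves 1 control and 1 naris occluded library, so the spread comes from the trained libraries and the lone libraries are assumed to vary like them. The listed ensheathing cell genes Npy, Ptn and Apod were among the 7, lower than in the remaining control library, control 2.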

How the data were processed

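Single-cell RNA was captured with the Chromium 3′ v2 chemistry in 6 libraries, 2 for each of 3 groups. The authors deposited counts of UMIs per gene and cell without normalization, made with Cell Ranger 2.0.0 on mm10, and an annotation of clusters made with Seurat 2.2.1, per the submitters' processing notes. The study's methods state that doublets had been removed, and no doublet caller was run here. The processed Seurat values were not used. Cells were taken as annotated, with 18560 genes in the table.

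Counts of each neuronal cluster were summed per library and divided by their total. Log2 ratios of levels had 20 CPM added, and lists were counted over the 3906 genes with a mean of at least 50 CPM over n15, n16 and n17. A random draw thinned cells to 500 UMIs. The members, lists and tests were chosen with earlier results of these data known, and the comparison within N14, the subset of cells by nuclear RNA and the setting without control 1 and naris occluded 2 were chosen after seeing the data.

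Named genes were, among genes with a UMI in n15 in at least 5 of 6 libraries, the 15 with the largest ratio over the highest other cluster and the 10 over both n16 and n17, and the 10 furthest below both among genes found in n16 and n17 in at least 5 libraries. Ribosomal protein, mitochondrial and sex-linked genes were left out of these. In each comparison of conditions they were the 3 genes of smallest p in each direction, since none was called. A gene that the rule took is not reported here. Members of the lists were named besides, and some others after their values were seen.

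Conditions were compared with edgeR 4.0.16 (quasi-likelihood test with TMM scaling and filterByExpr, all 6 libraries in the model) in R 4.3.3 on summed counts, and on numbers of cells with the neurons of the library as offset, both with Benjamini-Hochberg adjustment at 0.05. The SE beside edgeR's log2 ratios was derived from the test. It is the ratio without its sign divided by the square root of the F statistic. The n15 share of mitral and tufted cells was compared with an exact permutation test. The edgeR test of genes was checked on simulated counts with large changes, and its power for smaller changes was not measured. Alternatives were DESeq2 1.42.0, a replicate block, other filters, scalings and offsets, cells with at least 1000 UMIs, and each library left out.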

Additional observations from a re-analysis of the deposited data

Results flagged for a closer look

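The share of n15 cells among neurons went opposite ways with naris occlusion in the male and female pools. The log2 ratio of naris occluded over control was 1.66 in the male pools, with 8 and 17 cells, and −1.56 in the female pools, with 16 and 6 cells. With 1 library of each sex in a group, the difference between the sexes was not tested.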

How the results depend on the processing

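For naris occlusion, the number of genes called in n15 was 3 with the replicate block (Malat1, Syt7 and Cck, all lower), 1 with a total of at least 60 UMIs (Malat1), 1 in cells with at least 1000 UMIs (Malat1), 0 to 9 when leaving out single libraries, with 9 only without naris occluded 1, and 7 without control 1 and naris occluded 2. For training it was 0 with the block, 0 to 1 when leaving out single libraries (Ptn, without naris occluded 1), and 7 without control 1 and naris occluded 2. The other settings called 0. The replicate number gives the sex of the pool, and deviations of libraries with the same number correlated at 0.113 between control and naris occluded, 0.112 between control and trained and 0.143 between naris occluded and trained libraries, over 2 numbers, so pairing was not taken as given. If the control tissue was the open side of the occluded mice, a control library would come from the mice of its equally numbered occluded library. With the block, the log2 ratio of the n15 share of neurons was 0.17 for naris occlusion and 0.79 for training, and it changed no call there. The ratio for naris occlusion reversed to −0.18 in cells with at least 1000 UMIs, and ranged from −0.90 to 1.00 when leaving out single libraries. Its share of mitral and tufted cells differed by −0.40 points in cells with at least 1000 UMIs. The mean of Coro6 was 328 CPM in control libraries only, and nuclear long noncoding RNAs were 9.13% with mitochondrial genes left out of the total. Within N14, cytoskeletal linker genes above n17 in every library were 4 in place of 11, and vesicle genes below it 7 in place of 15. The causes were not tested. A single UMI was worth 27.8 to 113 CPM, which limits the levels of rare genes.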

Other observations

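Some n17 cells had as much nuclear RNA as n15 cells. Of the 927 n17 cells, 45 reached the first quartile of n15, 6.14% of UMIs in nuclear long noncoding RNAs, and 37 n17 cells lay within 1 percentage point of that value. Pooled over these 45 cells, which were chosen after seeing the data, Meg3 was at 7706 CPM and Srrm2 at 480 CPM, against 17746 and 2675 CPM in the pooled n15 cells. Coro6 was at 59.0 CPM from 7 UMIs and Cdhr1 at 1322 CPM, against 580 and 494 CPM in n15. Of the 116 n16 cells, 29 reached the same share, and they had Coro6 at 155 CPM from 9 UMIs and Srrm2 at 1050 CPM. Mitral and tufted markers were low in these 29 cells. Cdhr1 was at 155 CPM from 9 UMIs and Slc17a7 at 68.8 CPM from 4 UMIs, against 632 and 216 CPM in all n16 cells pooled.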
